A study of Mus musculus with 2 samples.

Results

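The Ly6 and LU-domain genes described here are Ly6a, Ly6d, Ly6e, Ly6g, Lypd8 and 2010109I03Rik, 6 of the 17044 genes measured. They are taken by symbol and were chosen by their average levels in these same cell clusters, so the levels are a description and carry no test. The measurements were single-cell RNA libraries from the colon epithelium of wild-type mice of the strain C57BL/6, taken 2 weeks after irradiation. There was 1 group with 2 libraries. The title of the study places them in work on colonoids, which are organoids grown from colon crypts, transplanted for radiation injury of the rectum; the labels do not say which cells came from a graft, how many mice were used or whether mice were pooled. Mice without irradiation were not analysed here, so no level below can be read as a response to it.

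Ly6 proteins share the LU domain, a small fold held by disulfide bonds that is also found in the urokinase receptor and in CD59. Most members are tied to the outer cell membrane by a glycosylphosphatidylinositol (GPI) anchor, and several are used as antigens to sort blood cells. In the colon the best known member is Lypd8, a glycoprotein of surface colonocytes that binds flagellated bacteria and helps to keep them out of the inner mucus. Ly6a, also called Sca-1, is an interferon-inducible antigen used as a marker of the regenerating, fetal-like gut epithelium in mice.

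The values were the authors' averages over the cells of 12 clusters, numbered 0 to 11, as UMIs (unique molecular identifiers, which tag single RNA molecules) per 10000 UMIs of a cell. The arithmetic of the low averages gave 3082 cells in all, from 482 in cluster 0 to 31 in cluster 10 and 19 in cluster 11, with cluster medians between 1424 UMIs per cell in cluster 5 and 19522 in cluster 7. Cluster 4 held 324 cells with a median of 11749 UMIs, and cluster 8 held 197 cells with a median of 6539. By marker lists cluster 0 was goblet-like (17 of 18 markers highest there, and 6.96% of the 3276 genes that reached 1 per 10000 in any cluster), cluster 5 neutrophil-like (12 of 16; 12.8%), cluster 7 proliferating-like (22 of 22; 13.1%), cluster 8 mature surface colonocyte-like (13 of 24; 10.8%) and cluster 11 enteroendocrine-like (16 of 16; 17.2%). Cluster 10 held markers of several immune types, and it and the other clusters are called by number. Epcam, an epithelial adhesion molecule, stood at 14.9 to 37.6 per 10000 in the other 10 clusters, and at 3.83 in cluster 5 and 2.89 in cluster 10. These 10 are called epithelial, but the genes with the largest fold in cluster 6 were the plasma cell genes Igkc at 13.8 per 10000, Igha at 9.41 and Jchain at 3.16. The part of plasma cell RNA in the cluster 6 levels was not tested. Levels are followed by 95% intervals from exact Poisson limits of the approximate UMI number behind them. The averages carry no replicate and pool both libraries, so the intervals cover counting error only, and no p-value was computed.

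Lypd8 was at 484.8 per 10000 in cluster 4 (481.4 to 488.1) and at 368.8 in cluster 8 (364.9 to 372.9). It was at 222.8 in cluster 1, 167.8 in cluster 3, 78.2 in cluster 9, 57.5 in cluster 2, 52.5 in cluster 0 and 47.1 in cluster 6, with 39.7 in cluster 7. Clusters 10, 5 and 11 were lowest, at 14.98, 11.97 and 11.1. Lypd8 thus had 4.85% of all UMIs in cluster 4 and 3.69% in cluster 8. Its order across the epithelial clusters was resolved at this depth, with intervals that did not overlap between any neighbours above cluster 5. In the immune clusters it stood at 2.47% (cluster 5) and 3.09% (cluster 10) of its highest epithelial level. The 11 pan-epithelial genes, which immune cells should lack, stood at 5.86 to 16.5% in cluster 5 and 0.715 to 11.3% in cluster 10. The Lypd8 share thus lay below their range in cluster 5 and within it in cluster 10.

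Ly6g encodes the antigen used to mark mouse neutrophils, and in these data its highest levels were epithelial. It was at 8.19 per 10000 in cluster 8 (7.61 to 8.81) and 5.66 in cluster 4 (5.31 to 6.03), and next at 1.32 in cluster 1 and 0.939 in cluster 3. The neutrophil-like cluster 5 had 0.603 (0.373 to 0.921), which was 7.36% of the highest epithelial level. This share lay within the 5.86 to 16.5% at which the 11 pan-epithelial genes stood in cluster 5. Most of those genes were spread more evenly over the epithelial clusters than Ly6g, so their range is not a matched background. Of the other members, Ly6e stood higher in cluster 5, at 37.2%. Lower were Ly6a at 3.18%, Lypd8 at 2.47%, 2010109I03Rik at 1.48% and Ly6d at 1.08%. The source of the Ly6g RNA in cluster 5 was not tested. The remaining levels were 0.307 in cluster 6, 0.225 in cluster 7, 0.178 in cluster 9 and 0.162 in cluster 0, with 0.125 in cluster 2. Cluster 11 had 0.0622 and cluster 10 had 0.0213, each equal to 1 UMI in 1 cell. From cluster 3 downwards the intervals of all neighbours in this order overlapped, so among neighbours only clusters 8, 4, 1 and 3 were separated. Clusters further apart in the order were not compared.

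Most neutrophil genes were far lower in clusters 8 and 4 than in cluster 5. The 16 measured neutrophil markers summed to 2.49 per 10000 in cluster 8 and 1.61 in cluster 4, and to 1294 in cluster 5; 3 of the 16 were at 0 in cluster 8 and 6 in cluster 4. S100a8 and S100a9, the calprotectin subunits, were at 0.722 and 0.785 in cluster 8, against 427 and 442 in cluster 5. Csf3r, the receptor of granulocyte colony-stimulating factor, was listed at 0.0563 in cluster 8, at 0 in cluster 4 and at 8.86 in cluster 5. Ptprc, the pan-leukocyte antigen CD45, was at 0 in clusters 8 and 4, against 3.69 in cluster 5. The exceptions were low in every cluster compared. Cd177, a GPI-anchored neutrophil antigen, had levels of 0.0835, 0.574 and 0.566 in clusters 8, 4 and 5. In the same order, the lactoferrin gene Ltf had 0.00317, 0.0807 and 0.0891 and the cathelicidin gene Camp 0.00908, 0 and 0.0467. Both Ltf and Camp were highest in cluster 3, at 0.488 and 2.35. The remaining markers stood at up to 0.635% of their cluster 5 level in cluster 8 and up to 0.234% in cluster 4. The 6 pan-leukocyte genes together gave 0.354 in cluster 8 and 0.35 in cluster 4.

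Ly6g and Lypd8 varied together, with Pearson's r = 0.82 over the 12 clusters and 0.91 over the 10 epithelial ones on the log2(level + 0.1) scale. Clusters share their libraries and differ in depth, so this r and those below are descriptions. The ratio of Ly6g to Lypd8 still differed between clusters. Among the epithelial clusters Ly6g was 2.22% of the Lypd8 level in cluster 8, the highest, 1.17% in cluster 4 and 0.651% in cluster 6. It was 0.591% in cluster 1, 0.560% in cluster 3 and 0.227% in cluster 9. Over all 12 clusters the ratio was highest in the neutrophil-like cluster 5, at 5.04%, where Ly6g was at 0.603 and Lypd8 at 11.97. Both genes thus marked clusters 8 and 4 most, and among the epithelial clusters Ly6g was weighted towards cluster 8. Ly6g was 46.1-fold higher in cluster 8 than in cluster 9 (29.98 to 74.7), and Lypd8 was 4.71-fold higher (4.61 to 4.83).

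Because these genes varied together, the 250 bases before their outermost RefSeq start sites are shown, from RefSeq on GRCm38.p6 (mm10), 5′ to 3′. Of the 6 genes, 2 had a window in the table of promoters used, Lypd8 at chr11:58378782-58379031 and Ly6g at chr15:75155011-75155260, both on the plus strand. Capitals mark every match to 6 short motifs that were picked after the windows had been seen, searched on both strands: the TATA box TATANA, the AP-1 site TGANTCA, the GAS element TTCNNNGAA, the interferon response core GAAANNGAA, the CDX site TTTATNG and the GATA site AGATAA.
Lypd8: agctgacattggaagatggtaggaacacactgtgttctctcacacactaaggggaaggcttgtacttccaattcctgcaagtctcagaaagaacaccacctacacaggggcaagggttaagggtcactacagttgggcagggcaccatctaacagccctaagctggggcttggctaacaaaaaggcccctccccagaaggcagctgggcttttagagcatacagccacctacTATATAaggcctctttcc
Ly6g: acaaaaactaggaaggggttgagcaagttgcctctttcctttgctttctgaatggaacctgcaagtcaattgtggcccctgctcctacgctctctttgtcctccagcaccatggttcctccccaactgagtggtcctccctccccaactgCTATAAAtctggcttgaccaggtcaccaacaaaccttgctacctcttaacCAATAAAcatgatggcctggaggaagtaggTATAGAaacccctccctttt

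In the Lypd8 window the only match was TATANA, from -18 to -13 before the start. In the Ly6g window TATANA matched from -99 to -94 and from -20 to -15, and TTTATNG matched on the reverse strand from -100 to -94 and from -50 to -44, the first of these over the upstream TATANA match. Over 32851 RefSeq windows of this length, 22.6% held TATANA, 6.75% TGANTCA, 7.02% TTCNNNGAA, 7.13% GAAANNGAA, 9.81% TTTATNG and 9.99% AGATAA. A match shows letters only, and neither window shares a motif with the other beyond the common TATANA.

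Ly6a was at 27.3 per 10000 in cluster 4 (26.5 to 28.1), with 10.7 in cluster 1 (10.3 to 11.1), 9.56 in cluster 8 (8.93 to 10.2) and 7.31 in cluster 7 (7.0 to 7.64). It was at 4.36 in cluster 6, 3.80 in cluster 3, 2.84 in cluster 0, 2.36 in cluster 9, 2.20 in cluster 10, 1.90 in cluster 2 and 0.867 in cluster 5, with 0.718 in cluster 11. The intervals of clusters 4, 1, 8 and 7 did not overlap, while those of clusters 6 and 3, of 9, 10 and 2 in turn, and of 5 and 11 did. Ly6a was thus found in every cluster, with a 38.0-fold span between cluster 4 and cluster 11. The levels in cluster 5 (3.18% of the highest epithelial level) and cluster 10 (8.05%) lay below and within the range of the pan-epithelial genes.

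2010109I03Rik, which RefSeq names Ly6m, was at 7.38 per 10000 in cluster 4 (6.98 to 7.81). The next levels were 1.09 in cluster 9 (0.912 to 1.30) and 0.816 in cluster 8 (0.640 to 1.03), whose intervals overlap. It was at 0.519 in cluster 1, 0.226 in cluster 6, 0.140 in cluster 0, 0.109 in cluster 5, 0.0573 in cluster 2, 0.0479 in cluster 3 and 0.00839 in cluster 7. It was at 0 in clusters 10 and 11, which allows up to 0.139 and 0.186 per 10000, the level of 3 UMIs. Of its 12 levels summed, 71.0% lay in cluster 4. It was second among the 10 genes with the largest fold in that cluster.

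Ly6d, known as an antigen of early lymphoid cells and of squamous epithelia, was at 2.40 per 10000 in cluster 4 (2.17 to 2.65). The next levels were 0.225 in cluster 7 (0.172 to 0.288), 0.186 in cluster 1, 0.132 in cluster 6 and 0.0941 in cluster 2. It was at 0.0273 in cluster 0, 0.0260 in cluster 5, 0.0211 in cluster 8 and 0.00784 in cluster 3. In cluster 9 it was at 0.00334, which is 1 UMI in 1 cell. Clusters 10 and 11 were at 0, with the same limits as above. Below cluster 4, the intervals separated clusters 2 and 0 and no other neighbours. Cluster 4 also had 5 of the 15 measured squamous epithelial genes at 2-fold or more over the mean of its fellow clusters and 0 at 2-fold or more under it, with a list median log2 fold of 0.46, beside 9.92% and 27.6% of the 3276 genes at any level and their median of -0.37. Sfn, an adaptor protein of epithelial cells, and Sprr2a3, a cornified envelope precursor, were at 12.04 and 13.8 per 10000 there. The list did not follow Ly6d throughout: Sprr2a3 was highest in cluster 8, at 30.1, where Ly6d was at 0.0211. In the list Sprr2a3, Sfn, Perp and Sprr1a alone reached 1 per 10000 in any cluster, as all of the 3276 genes did. The keratin genes of the list stayed below that level. Krt14 and Krt16 were highest in cluster 4, at 0.415 and 0.0168, Krt13, Krt15 and Krt6a in cluster 7 and Krt4 in cluster 2.

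Ly6e, an interferon-inducible member that acts in virus entry and serves as the placental receptor of syncytin-A in mice, had another pattern. It was at 12.6 per 10000 in cluster 0 (12.2 to 12.9) and 11.8 in cluster 4 (11.3 to 12.4), with overlapping intervals, and at 9.64 in cluster 10 (8.37 to 11.04). It was at 7.59 in cluster 1, 7.42 in cluster 6, 6.52 in cluster 7, 4.68 in cluster 5, 4.33 in cluster 2, 3.59 in cluster 11 and 2.11 in cluster 3, with 1.39 in cluster 9. The lowest level was 0.655 in cluster 8 (0.498 to 0.846), 19.2-fold under cluster 0. Ly6e was thus low in clusters 8, 9 and 3, of which cluster 8 had the highest Ly6g. Its share of the highest epithelial level was 37.2% in cluster 5 and 76.7% in cluster 10, above the ranges of the pan-epithelial genes in both. Over the 12 clusters its r with the other members ran from -0.30 (Ly6g) to 0.47 (Ly6d), while Ly6a and Lypd8 had r = 0.86, Ly6a and Ly6d 0.75, and Lypd8 and 2010109I03Rik 0.75.

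**Figure D1:**
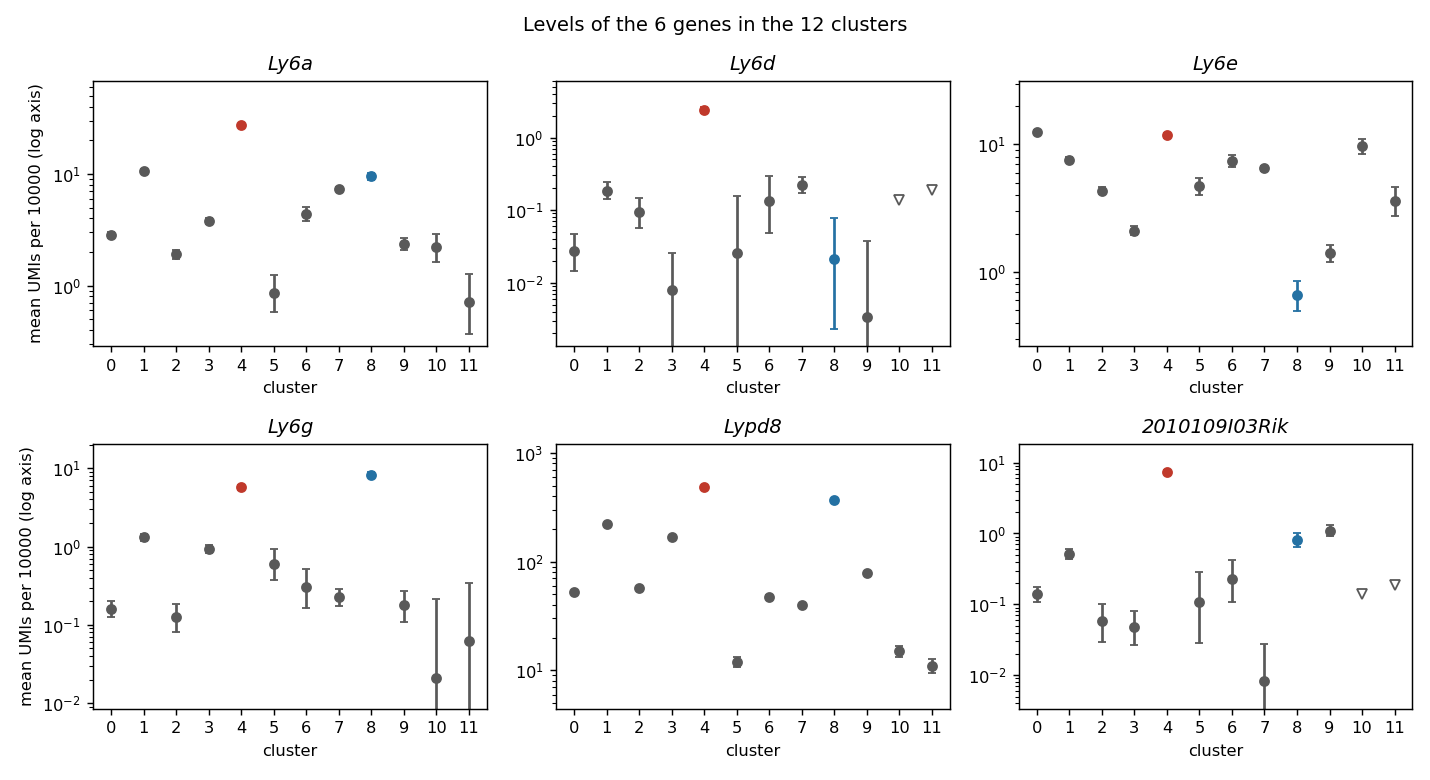
Level of each gene (mean UMIs per 10000, log axis, scaled separately for each gene) in clusters 0 to 11, with 95% intervals for counting error; cluster 4 is red, cluster 8 blue, bars that leave the panel reach lower than its axis, and open triangles mark clusters at 0 at the level of 3 UMIs. Ly6a, Ly6d, Lypd8 and 2010109I03Rik are highest in cluster 4, Ly6g in cluster 8 at 8.19 and Ly6e in cluster 0 at 12.6, with cluster 8 lowest for Ly6e at 0.655.

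Set against the mean of the other 11 clusters, with 0.1 per 10000 added to both, cluster 4 had all 6 genes at least 2-fold higher at a level of 1 or more. Among the 3276 genes that reached 1 per 10000 in at least 1 cluster, 9.55% met this rule in cluster 4; the levels chose the members, so nothing is read from the contrast. The folds in the highest cluster over that mean were 20.01 for 2010109I03Rik, 15.1 for Ly6d, 8.52 for Ly6g, 6.32 for Ly6a, 4.97 for Lypd8 and 2.29 for Ly6e. Cluster 8 had 2 of 6 (Ly6g and Lypd8; 10.5% of genes), and cluster 0 had 1 (Ly6e; 5.8%). Clusters 1, 2, 3, 5, 6, 7, 9, 10 and 11 had 0, where 0.855, 1.28, 2.84, 13.7, 3.54, 6.41, 3.48, 10 and 13.8% of genes met the rule, in that order. With 1 per 10000 added, the log2 fold fell to 1.67 for Ly6d, against 3.92 with 0.1 added, to 2.72 for 2010109I03Rik, against 4.32, and to 2.29 for Ly6g, against 3.09. Summed, the 6 genes had 5.39% of the UMIs in cluster 4, 3.88% in cluster 8, 2.43% in cluster 1 and 0.155% in cluster 11. Without Lypd8 the sums were 54.6 per 10000 in cluster 4, 20.3 in cluster 1, 19.2 in cluster 8 and 4.37 in cluster 11. Over all 6 genes, 35 of 66 pairs of neighbours in the order of clusters had overlapping intervals.

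Clusters 4 and 8 had the highest sums, and their members were set side by side, a pair chosen after the levels were seen. Of the 6 genes, 4 were at least 2-fold higher in cluster 4 and 0 were at least 2-fold higher in cluster 8; of the 1649 genes at 1 or more in either cluster, the shares were 9.7% and 7.16%. Ly6d was 114-fold higher in cluster 4, on about 2 UMIs in cluster 8, with an interval of 30.3 to 1041, and 20.7-fold with 0.1 per 10000 added to both levels. Ly6e was 18.1-fold higher (13.9 to 23.8), 2010109I03Rik 9.05-fold higher (7.14 to 11.6) and Ly6a 2.85-fold higher (2.65 to 3.08). Lypd8 was close between them, at 1.31-fold (1.30 to 1.33). Ly6g was the member with the reverse order, with a ratio of cluster 4 to cluster 8 of 0.691 (0.627 to 0.762).

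**Figure D2:**
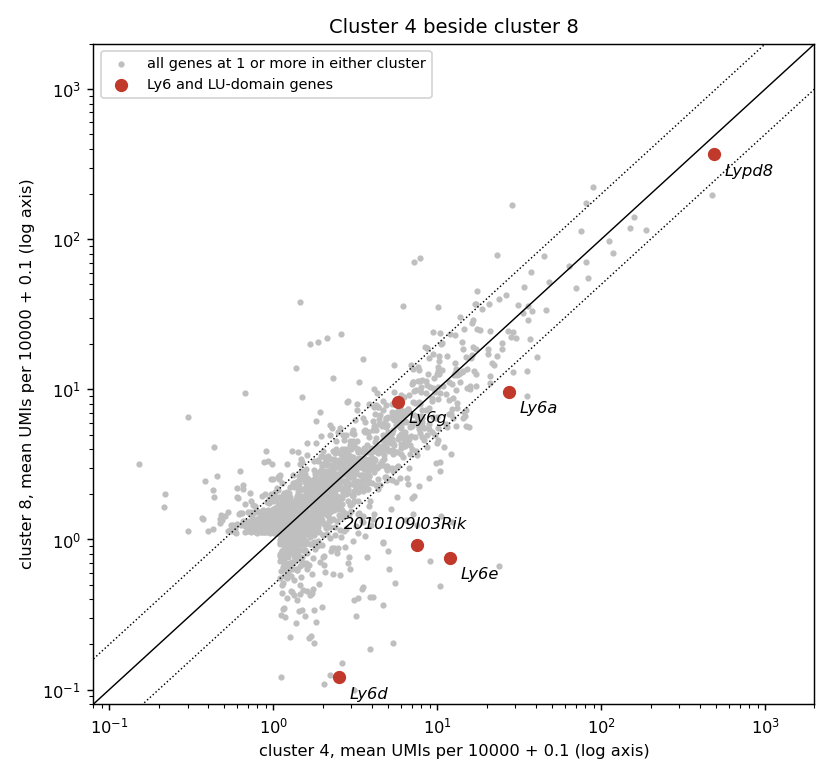
Level in cluster 4 (x axis) and cluster 8 (y axis), each as mean UMIs per 10000 plus 0.1 on a log axis, for genes at 1 or more in either cluster (grey) and the 6 Ly6 and LU-domain genes (red); the solid line marks equal levels and the dotted lines 2-fold differences. Ly6d, Ly6e, 2010109I03Rik and Ly6a lie under the lower dotted line, while Lypd8 (ratio 1.31) and Ly6g (ratio 0.691) lie between the lines.

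All 6 genes were lower in cluster 1 than in cluster 4, by unequal amounts. In cluster 4 relative to cluster 1, 2010109I03Rik was 14.2-fold higher (12.1 to 16.9), Ly6d 12.9-fold (9.77 to 17.4), Ly6g 4.30-fold (3.82 to 4.84), Ly6a 2.56-fold (2.44 to 2.67), Lypd8 2.18-fold (2.15 to 2.20) and Ly6e 1.56-fold (1.47 to 1.65). Thus 5 of the 6 genes were at least 2-fold higher in cluster 4, as were 10.1% of 1685 genes. Cluster 1 in turn had 2.81-fold more Ly6a than cluster 3 (2.63 to 3.01) and 3.60-fold more Ly6e (3.30 to 3.94), but only 1.40-fold more Ly6g (1.20 to 1.64) and 1.33-fold more Lypd8 (1.31 to 1.34). Ly6d was 23.7-fold higher in cluster 1 than in cluster 3 (6.94 to 152) and 2010109I03Rik 10.8-fold (6.35 to 19.9), both from levels under 1 per 10000 (2.65-fold and 4.18-fold with 0.1 added). Ly6g and Lypd8 thus had the smallest folds of the 6 genes between clusters 1 and 3.

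Of 46 further Ly6 and LU-domain symbols, 22 were found as written, and of these Plaur alone reached 1 per 10000. The 46 include Ly6m, which is the RefSeq name of the member 2010109I03Rik. They also include Ly6a2, which was measured under the symbol I830127L07Rik with a highest level of 0.0445 and is not among the 22. Plaur, the urokinase receptor, had 18.0 in cluster 5 (16.6 to 19.5), 2.73 in cluster 10 and 1.61 in cluster 2. In clusters 4 and 8 it had 0.747 and 0.0535. Its ligand gene Plau and the plasminogen system gave 6 measured genes, of which 1 was at least 2-fold higher in cluster 4 and 1 in cluster 8; at any level, 9.92% of the 3276 genes were so in cluster 4 and 10.9% in cluster 8. Ly6c1, an antigen of endothelial and lymphoid cells, had its highest level in cluster 4 at 0.900 (0.761 to 1.06), with 0.449 in cluster 7, 0.413 in cluster 1 and 0.143 in cluster 8. Gm14137 was likewise highest in cluster 4, at 0.431. The monocyte antigen Ly6c2 was close between clusters 5 and 10, at 0.704 and 0.683. Ly6i was highest in cluster 10 at 0.727, with 0.305 in cluster 5. Of the 22 genes, 6 were highest in cluster 4, against 9.8% of the 3276 genes, which unlike most of the 22 all reached 1 per 10000. Lynx1, Lypd3 and Psca, among the 6, were at 0.0565, 0.0243 and 0.00842 there, and most of the 22 were at a few UMIs.

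**Figure D3:**
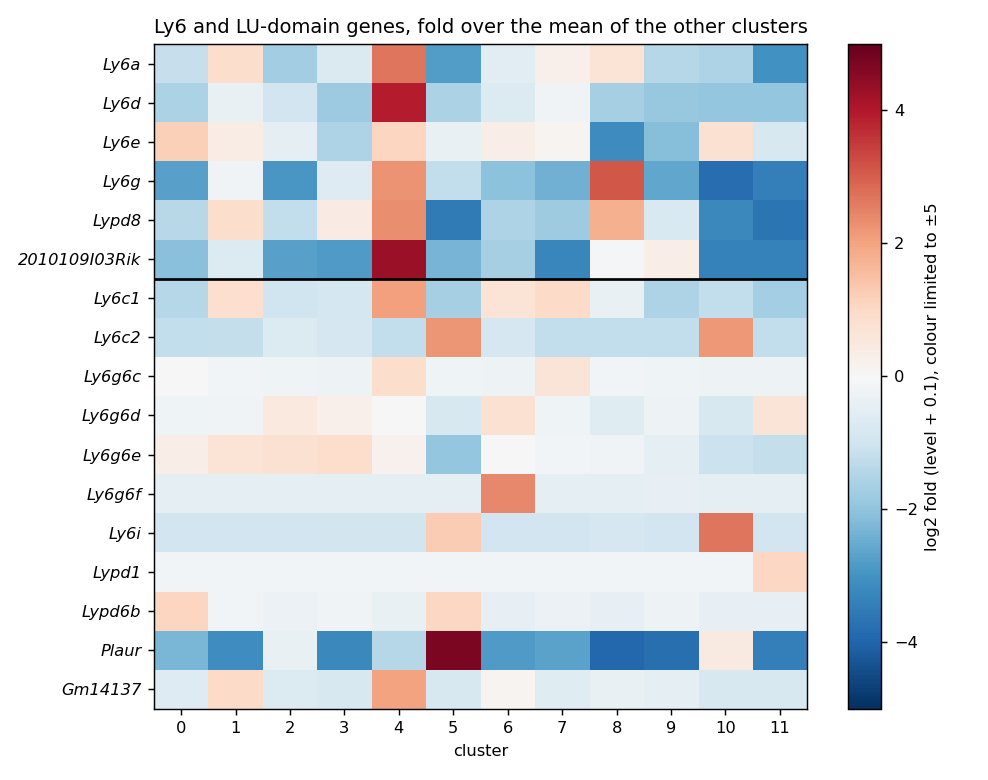
Log2 fold of each cluster over the mean of the other 11 (0.1 per 10000 added) for the 6 genes above the black line and, under it, for the other measured Ly6 and LU-domain genes that reached 0.1 per 10000. Red in column 4 runs through the 6 genes, Ly6c1 and Gm14137, while Plaur is red in column 5 and Ly6i in column 10.

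Of the 6 genes, 5 lie within 397.073 kb of chromosome 15. On GRCm38.p6 these are Ly6d at 74762056 to 74763567 and 2010109I03Rik at 74878336 to 74881704 on the minus strand, Ly6e at 74955025 to 74959904 on the plus strand, Ly6a at 74994877 to 74998031 on the minus strand and Ly6g at 75155261 to 75159128 on the plus strand. Lypd8 lies apart, on chromosome 11 at 58379032 to 58390541 on the plus strand. The stretch on chromosome 15 holds 24 RefSeq genes, 15 of them protein-coding, and 13 were measured. Among the 8 measured genes that are not members, 0 reached 1 per 10000 and 1 was highest in cluster 4 (Ly6c1). Of these 8, 5 were highest in cluster 5 or 10 (12.8% and 9.13% of the 3276 genes). The 3276 genes all reached 1 per 10000, unlike the 8, so these shares are not a matched background. In cluster 5, Gm28068 at 0.0335, Gm8000 at 0.0219 and I830127L07Rik at 0.0445 lay below 0.0859, the level of 3 UMIs there. Ly6c2, at 0.704 in cluster 5, and Ly6i, at 0.727 in cluster 10, lay above that level. The nearest protein-coding genes on either side of Ly6a, Ly6i and Ly6c1, differed. Ly6i was at 0.00185 and Ly6c1 at 0.900 in cluster 4, against 0.727 and 0.0354 in cluster 10. No exon of a member overlaps an exon of another gene, while Ly6a lies within the span of the long noncoding RNA gene Gm28068 (74966931 to 75043885), which was at 0.00387 in cluster 4 and 0 in cluster 8. Of the 50-base stretches of the Ly6a transcripts, 19.0% also occur in another gene, 15.03% in Ly6c1. Such stretches do not tell these 2 genes apart. The shares were 0.448% for Ly6g, 5.16% for 2010109I03Rik and 0 for the others. Over the last 400 bases of the transcripts they were 9.27% for Ly6a, 0.313% for Ly6g and 0 for 2010109I03Rik.

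**Figure D4:**
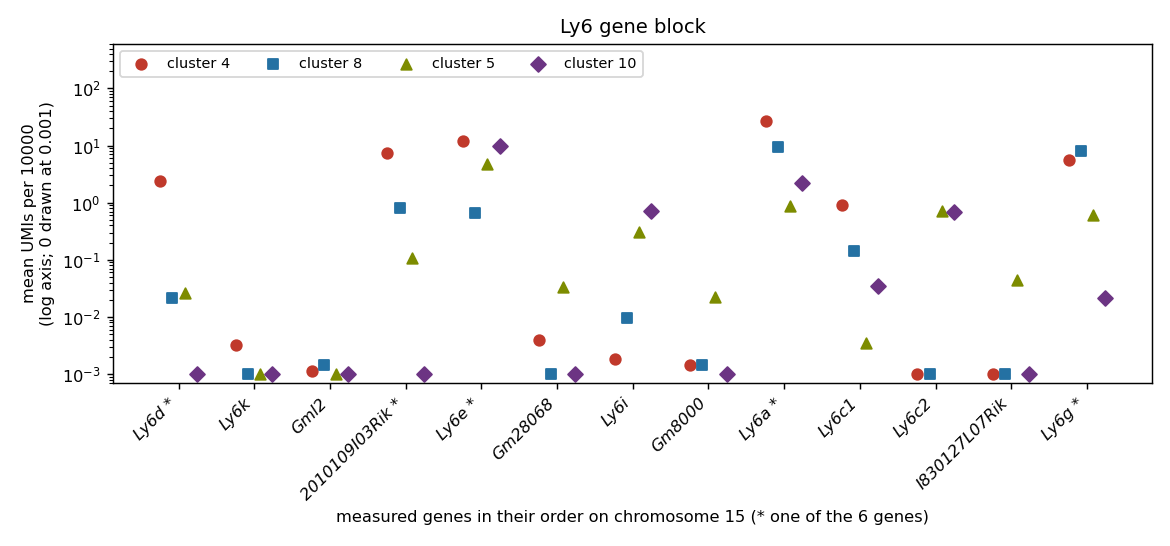
Levels (mean UMIs per 10000, log axis, 0 drawn at 0.001) of the 13 measured genes of the chromosome 15 stretch in genome order, not to scale, in clusters 4, 8, 5 and 10; asterisks mark the 5 members there. Levels are to be read across clusters within a gene: Ly6d, 2010109I03Rik and Ly6a are highest in cluster 4, Ly6c2 is at 0 in clusters 4 and 8, and Ly6i is highest in cluster 10.

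Interferon-stimulated genes had their highest list median in cluster 4. Of 34 measured, 25 were at least 2-fold higher in cluster 4 and 1 lower, with a median log2 fold of 1.54 (0.38 with 1 per 10000 added), beside 9.92% and 27.6% of the 3276 genes and their median of -0.37. In cluster 8, 0 of the 34 were at least 2-fold higher and 8 lower, with a median of -0.38, beside 10.9%, 32.4% and -0.41. Only 12 of the 34 reached 1 per 10000 in any cluster. Isg15, a ubiquitin-like modifier, was at 5.43 in cluster 4 and 0.415 in cluster 8, but at 12.6 in the neutrophil-like cluster 5. Irf7, a transcription factor of the interferon response, was at 7.09 in cluster 4 and 1.85 in cluster 8. Between clusters 4 and 8, Ly6a, Ly6d, Ly6e, 2010109I03Rik and, by the smallest ratio, Lypd8 had the same order as this list's median, and Ly6g had the other.

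The mature surface colonocyte genes had a higher list median in cluster 8 than in cluster 4, with single genes in both directions. Of 24 measured, 13 were at least 2-fold higher in cluster 4 (median 1.06) and 18 in cluster 8 (median 1.78), beside 9.92% and 10.9% of the 3276 genes, whose medians were -0.37 and -0.41. Clca4b, a chloride channel accessory protein, was at 5.25 in cluster 4 and 0.104 in cluster 8. Krt20, the keratin of surface colonocytes, was close between them at 12.2 in cluster 4 and 10.8 in cluster 8. Car4, a GPI-anchored carbonic anhydrase, was at 1.36 in cluster 4 and 38.1 in cluster 8. Of the 24 repair and fetal-like genes, 7 were at least 2-fold higher in cluster 4 and 5 lower, while 0 were higher in cluster 8 and 12 lower. Of the 3276 genes, 9.92% were higher and 27.6% lower in cluster 4, and 10.9% and 32.4% in cluster 8, so the 5 lower in cluster 4 were no more frequent than among all genes. Clu, which encodes clusterin, stood at 23.6 in cluster 4 and 0.564 in cluster 8. The repair list was mixed in cluster 4, where S100a6 was at 158 and S100a11 at 10.4, below its 63.5 in cluster 5.

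Of the 24 measured genes that make GPI anchors, 0 were at least 2-fold higher or lower in cluster 4 or in cluster 8, beside those same shares of all genes, with medians of -0.12 and -0.16, and 4 of the 24 reached 1 per 10000. Pigt, a subunit of the transamidase that attaches the anchor, had 1.21 in cluster 4 and 0.710 in cluster 8, and Dpm3, of the mannose donor synthase, had 0.938 and 1.33. Among 28 other genes of GPI-anchored proteins, 5 were at least 2-fold higher in cluster 4 and 6 lower (median -0.09), beside 9.92% and 27.6% of all genes (median -0.37). These others did not form a block: Cd55, which limits complement, was at 2.19 in cluster 4 and 0.774 in cluster 8, Cd24a at 0.774 and 0.281 with its highest level of 9.94 in cluster 5, and Cd14 at 0.547 and 0.257 with 56.8 in cluster 5.

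**Figure D5:**
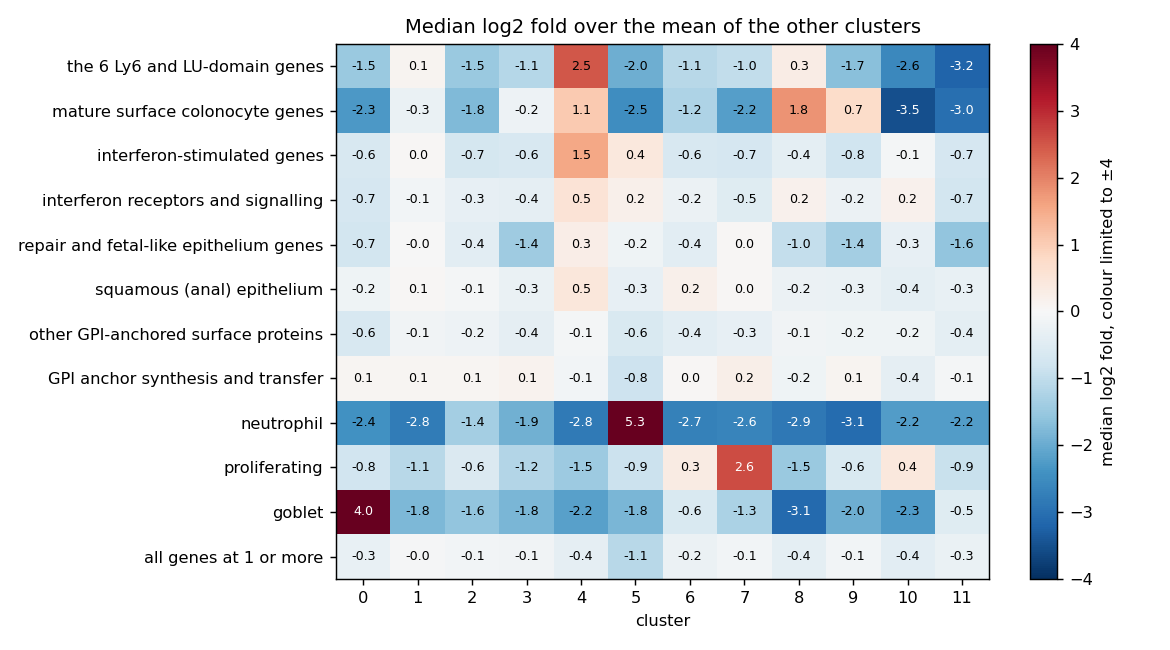
Median log2 fold of each cluster over the mean of the other 11 for the 6 genes, 10 gene lists and all 3276 genes that reached 1 per 10000 in at least 1 cluster; each cell prints its median. In column 4 the 6 genes are at 2.5, beside 1.5 for interferon-stimulated and 1.1 for mature surface colonocyte genes; in column 8 they are at 0.3, beside -0.4 and 1.8.

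For each member the 5 genes with the highest Pearson's r on the same scale were taken from the 3276, over the 12 clusters. The genes taken for Ly6a included Casp8, an initiator caspase, Cd55, Net1 and Pkp3, a plakophilin of desmosomes. Ly6d was most like Ubd (0.94), a cytokine-inducible ubiquitin-like protein, then Duoxa2, the maturation factor of the oxidase Duox2, and Clca4b, Trim40 and Aldh1a3. 2010109I03Rik was most like Clca4a (0.95), then Ddx60, Ifit1bl1, Ptprh and Leng9. Ly6g was most like Slc46a1 (0.95), a folate transporter, then Rdh16, Mgat4a, Sft2d2 and Ptprj. Lypd8 was most like Slc44a4 (0.97), a choline transporter-like protein, and its genes also included Cdkn2b, Trim16 and Chmp2b. Ly6e was most like Tnfaip8 (0.87), then Phlda1, the disulfide isomerase P4hb, Lgals9 and the tissue factor gene F3. No gene was taken for more than 1 member. Of the 30 genes taken, 20 were also among the 5 most alike with 1 per 10000 added, 16 over the epithelial clusters alone, 13 when genes down to 0.1 per 10000 were admitted and 5 by rank correlation.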

How the data were processed

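Single-cell RNA libraries (1 group, 2 libraries) were processed by the authors with Cell Ranger 3.1.0 and Seurat 2.3 on mm10, per the submitters' processing notes. Not given in the sources used here are the chemistry, annotation, cell filters, doublet treatment and settings of the clustering. The authors deposited linear averages, in UMIs per 10000, taken over the cells of a cluster, read from the values: each of the 12 columns sums to 10000. Both libraries are pooled in every column.

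An average made by a single UMI in 1 cell divides 10000 into a whole number (relative tolerance 1e-12), which gave the number of cells per cluster and UMI totals, each from at least 2 genes, for 2334 of 3082 cells (75.73%). Approximate UMIs are level times cells times the harmonic mean total. On simulated data of all 17044 genes the number of cells was right in 12 of 12 clusters, and the depth used was 1 to 2.20 times the true one, so intervals can be too narrow. A value of 0 allows 3 UMIs.

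Folds over the mean of the other clusters use a pseudocount of 0.1 per 10000, as do the counts of genes at least 2-fold apart; the ratios of 1 gene between 2 clusters are of the levels as deposited, with none. The genes, the 24 lists and the tests were chosen with earlier results of these data known. Named genes were the 6 members, the 5 most alike of each, other family members at 1 or more per 10000, the 4 highest of each other list and a few preset markers; Ly6c1, Ly6c2, Ly6i, Gm14137 and the motifs were picked after their values were seen. Some genes that this rule takes are not reported here. Positions and promoters come from RefSeq, shared stretches from GENCODE transcripts. Python 3.11.15, pandas 2.3.3, numpy 2.4.6 and scipy 1.17.1 were used. Alternatives varied the pseudocount, the mean the clusters were set against, the clusters used, the minimum level, the depth and the measure of likeness.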

Additional observations from a re-analysis of the deposited data

How the results depend on the processing

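Under the alternatives, 81 of the summary values stayed within 1.5 times the stated one and 5 did not. These values are counts, which cannot reverse, and many stayed at 0 in clusters that had 0 members. All 6 members were at least 2-fold higher in cluster 4, or 5 with 1 per 10000 added or with the mean weighted by cells; the count for clusters 4 over 8 was 4 with each pseudocount. The exceptions came from setting a cluster against the median of the others, a lower bar where 1 or 2 clusters are far above the rest: the members at least 2-fold higher were then 3 in cluster 1 and 1 each in clusters 3, 7, 9 and 10, against 0 in each. Single-gene and list values moved in 53 further cases and stayed in 27. With the depth divided by 2, 43 of 66 neighbouring clusters overlapped, against 35. The pairs no longer separated were clusters 1 and 8 and clusters 0 and 9 for Ly6a, and 2 and 0 for Ly6d. For Ly6e they were 4 and 10 and then 10 and 1, and for Lypd8 10 and 5. For 2010109I03Rik they were 8 and 1 and then 1 and 6. Leaving out cluster 6, the epithelial clusters alone and the depth setting were run on the same averages; the depth, cluster 4 over 8 and no cluster 6 were chosen after seeing the data. Leaving out each library could not be done, since no column separates them. No paired analysis was possible because the columns carry no library or replicate number. Depth limits clusters 10 and 11 most, where Ly6d and 2010109I03Rik were at 0, which allows levels of up to 0.139 and 0.186 per 10000, and Ly6g rests on 1 UMI in each.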
